A study of Mus musculus with 51 samples.

Results

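Retinoic acid is made from vitamin A in cells that express retinaldehyde dehydrogenases, is cleared by Cyp26 enzymes in other cells, and acts through nuclear receptors (Rara, Rarb, Rarg) that bind DNA together with Rxr partners. Several genes of the pathway, among them *Rarb* and *Cyp26a1*, are themselves well known to be switched on by retinoic acid, so that their transcripts are widely read as a sign of a signal. In the gastrulating embryo the posterior epiblast and nascent mesoderm express *Cyp26a1*, and *Aldh1a2* comes on in mesoderm that has left the primitive streak.

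Here 9 genes of this pathway, of 24538 genes in each deposited RNA-seq table, were followed while mouse embryonic stem cells were differentiated towards cardiac mesoderm. They were taken by symbol and all 9 are present in all 9 tables. *Aldh1a2* encodes a retinoic acid synthesising enzyme, *Cyp26a1* and *Cyp26b1* degrading enzymes, *Rara*, *Rarb* and *Rarg* the receptors, *Crabp1* and *Crabp2* cytoplasmic binding proteins, and *Stra6* a membrane receptor that takes up retinol bound to its carrier. In RefSeq on GRCm38.p6 (mm10) the genes that the results turn on span chr9:71215789-71296243 (*Aldh1a2*), chr19:37697738-37701536 (*Cyp26a1*), chr14:16430839-17082331 (*Rarb*), chr15:102234938-102257522 (*Rarg*), chr9:54764748-54773110 (*Crabp1*) and chr3:87948693-87953372 (*Crabp2*).

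F1G4 wild-type (WT) cells were profiled as ES cells and on days 1, 2 and 3 of culture with 20 ng/ml Bmp4. In the study ES denotes the embryoid body stage, when ES cells had formed aggregates. The same line carrying deletions of promoter and first exon of *Eomes*, of *T*, or of both (dKO, made from the *Eomes* KO) was profiled on days 2 and 3. *Smad4* KO cells, in which Cre had removed a floxed first exon, and their floxed parental cells (called *Smad4*-line WT) were profiled on days 1 and 2. The KO lines were each grown from single clones. Feeder fibroblasts were removed before differentiation. After the ES stage all lines received the same Bmp4 in a medium supplemented with B27, a mixture that contains a retinol ester, whereas ES cells were collected before either was added. The labels list 18 RNA samples, 2 for each F1G4 WT stage and 1 for every other line and day, whereas the figure legends of the study describe 2 replicates.

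Each table gives a single pooled value per gene and condition in FPKM (fragments scaled to transcript length and library size). There is therefore no spread between replicates, no test and no known depth, and no difference below has a replicate check. Following the rule of the study, genes were examined if one of the groups compared exceeded FPKM 1. They were then counted as past the fold if their log2 ratio, taken without a pseudocount, exceeded 1 or lay below -1. A gene above the minimum in only 1 group passes more readily, so shares set against all genes examined are descriptions and not tests. Because RNA is pooled over all cells of a culture, fewer expressing cells and less RNA per cell cannot be told apart. The number of genes above FPKM 1 ran from 10416 to 11248 over the 14 conditions. Day 3 *Eomes* KO and day 2 *T* KO cells stood apart by the number of genes past the fold, 1907 and 1775, against 536 to 1266 in the other 6 KO comparisons, and counts resting on them are also given without them. *Smad4* FPKM was not lower in the *Smad4* KO (39.4 against 33.8 on day 1, 46.8 against 39.3 on day 2). As only the first exon is deleted, this whole-gene value does not check the label. *Eomes* was at 2.42 and 0.276 in its own KO on days 2 and 3, against 9.42 and 20.3 in WT, and *T* at 6.64 and 3.00 in its KO against 44.8 and 323. The labelled stages matched their markers in WT, with all 8 pluripotency markers above FPKM 1 in ES cells and all 8 nascent mesoderm markers above it on day 3.

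Of the 9 genes, *Rarb* and *Cyp26a1* are also those whose promoter window holds the kind of site that retinoic acid receptors are known to bind. The windows, taken from RefSeq (GRCm38.p6, the mm10 build), run from 250 bases before to 50 after a gene's start, and 8 of the 9 genes have at least 1. The site searched for, on both strands, was a direct repeat of half-sites with 5 bases between them (DR5). A half-site was the consensus AGGTCA, the variant spelled AGTTCA, the variant spelled GGTTCA or the variant spelled GGGTCA. The repeat occurs in 32 of 32851 such windows of the genome (0.0974%), or 31 of 27025 genes. Among the 8 genes it occurs in 2 of 15 windows, those of *Rarb* and *Cyp26a1*. Both were known targets before the search, so these counts are a description and not a test. The stretches are shown because both genes are textbook targets of the receptors and their levels in KO cells are described below. Capitals mark the repeat and lower case its neighbours.
Rarb: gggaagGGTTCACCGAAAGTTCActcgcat
Cyp26a1: acaaattAGTTCACCCAAAGTTCAtcttta

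The *Rarb* stretch lies at chr14:16575506-16575535 and reads along the gene, which is on the minus strand, with the repeat ending 37 bases before the start used for the window. That start is internal, as the RefSeq gene begins further upstream, at 17082331 on this strand. The *Cyp26a1* stretch lies at chr19:37697770-37697799 and is printed on the minus strand, opposite to the gene. Its repeat ends 16 bases before the start used for the window, and likewise lies inside the RefSeq gene, whose first base is 37697738. The 17-base repeats are the same at 15 positions and differ by G1A and G9C, counted from the first base of the repeat, with the *Rarb* base first. With the consensus and the first of these variants only, 13 windows remained, among them that of *Cyp26a1* but not that of *Rarb*. Repeats spaced by 1 or 2 bases (73 and 88 windows) and the T-box site AGGTGTGA (419 windows, 1.28%), the kind of site bound by Eomes and T, had no match in the windows of the 8 genes. A match is a description of these letters and not evidence of binding, and a missing match does not show that binding is absent. From binding and expression, the study lists *Aldh1a2* among the putative direct targets activated by T. It places most T binding sites outside promoters, where no window was searched.

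At the level of transcripts, receptors and binding proteins were present throughout, while synthesis, degradation and uptake genes were close to or below FPKM 1 in most conditions. *Rara*, *Rarg*, *Crabp1* and *Crabp2* were above FPKM 1 in all 14 conditions, *Cyp26a1* in 3, *Rarb* in 2, *Aldh1a2* in 1, and *Cyp26b1* and *Stra6* in none.

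**Figure D1:**
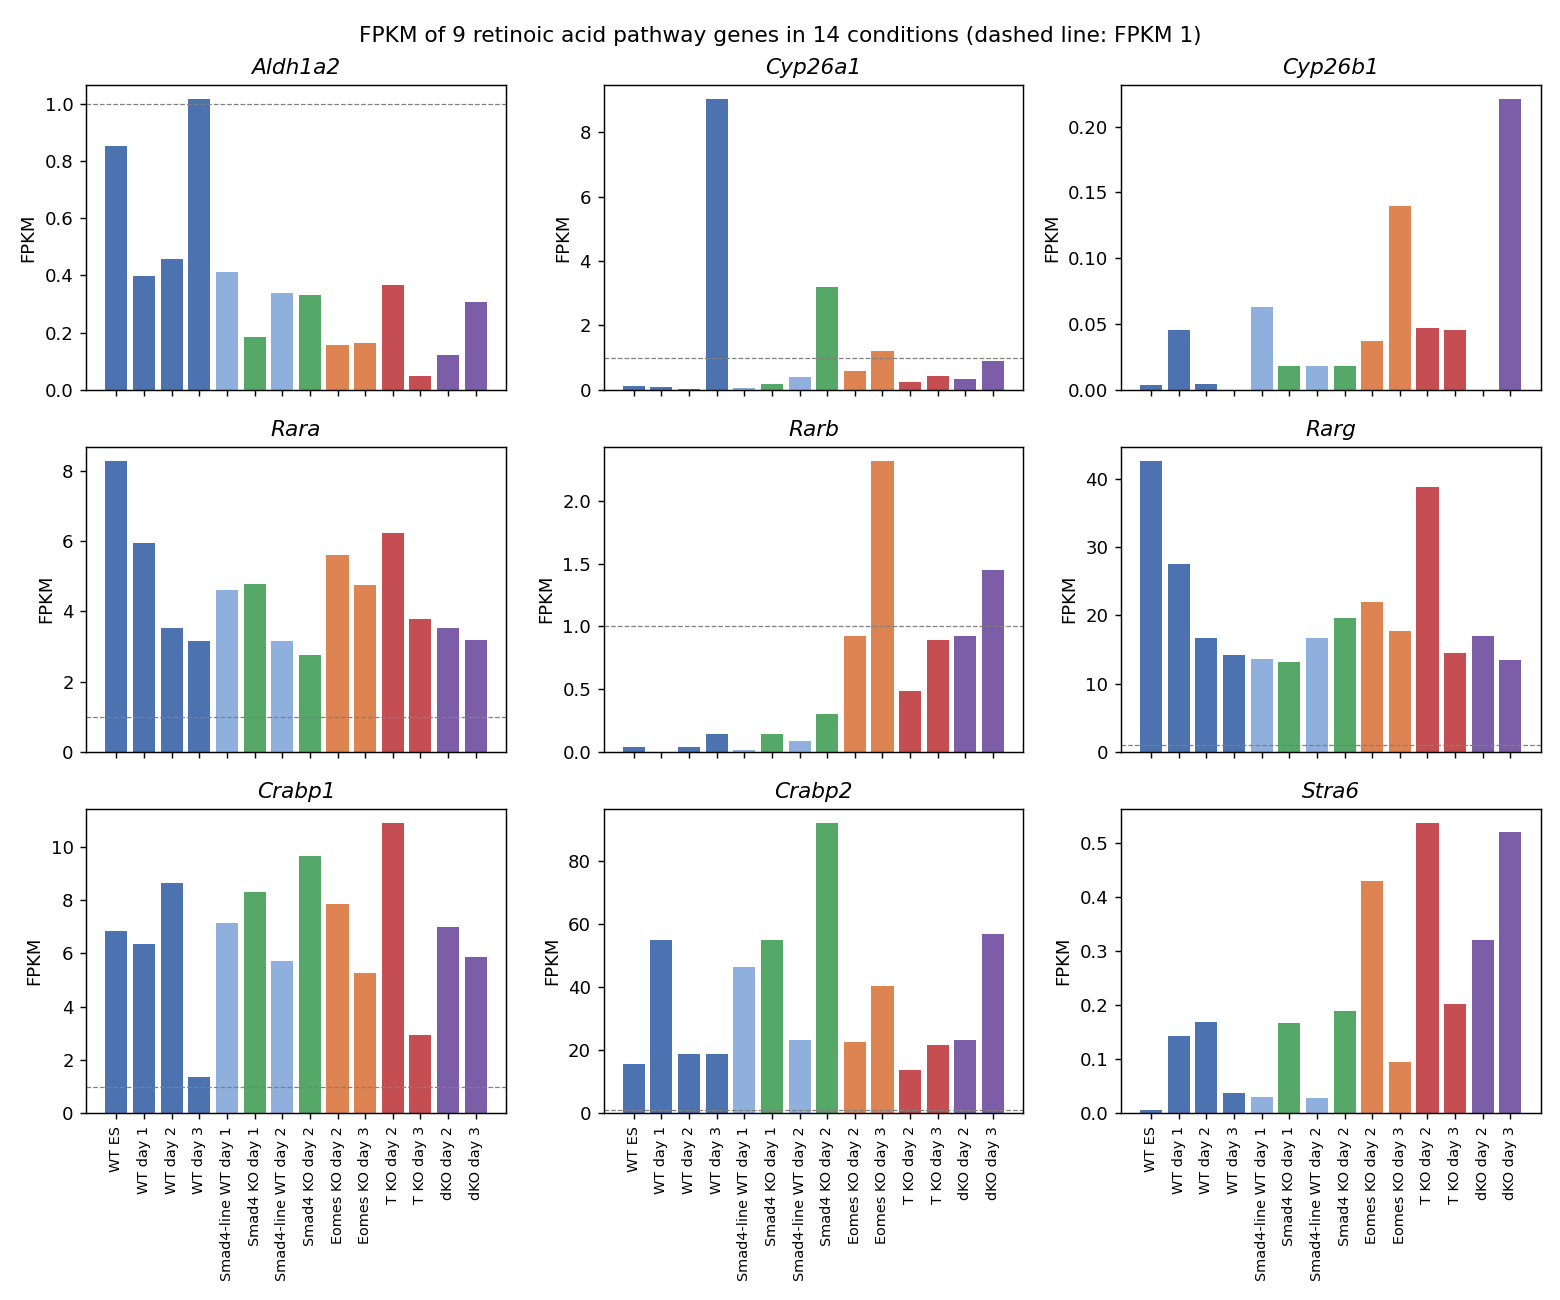
FPKM of each of the 9 genes (y axis, linear and different in each panel) in the 14 conditions (x axis), with 1 pooled value per bar and no error bars. *Cyp26a1* peaks at 9.02 in WT day 3 cells, *Rarb* at 2.32 in the *Eomes* KO on day 3, and *Crabp2* at 91.9 in the *Smad4* KO on day 2.

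In WT F1G4 cells most calls fell between days 2 and 3, when the degrading enzyme *Cyp26a1* was higher and the binding protein *Crabp1* lower. *Cyp26a1* was listed at 0.103 FPKM in ES cells and at 0.0962, 0.0215 and 9.02 on the following 3 days. The day 3 value is the highest of all conditions, and only the *Smad4* KO on day 2 (3.20) and the *Eomes* KO on day 3 (1.22) were also above FPKM 1. Between days 2 and 3 its ratio was 8.72 on the log2 scale, the 10th highest of 11394 genes examined, against a day 2 value close to 0. *Crabp1*, at 6.85, 6.36 and 8.64 up to day 2, stood at 1.39 on day 3, a log2 ratio of -2.64. *Aldh1a2* was at 0.854, 0.399, 0.458 and 1.02, past the fold between days 2 and 3 by a log2 ratio of 1.15, with the higher value barely over the minimum. Adding 0.1 to both values leaves it at 0.998. Thus 3 of 6 genes examined were past the fold in this step, against 10.2% of all genes examined.

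*Crabp2*, which carries retinoic acid to the receptors in the nucleus, behaved differently and was transient. Its FPKM was 15.6 in ES cells, reached 55.1 on day 1 and was back at 18.7 on both later days. It was the only one of 4 genes examined to pass the fold from ES cells to day 1 (log2 ratio 1.82, background 13.5%) and from day 1 to day 2 (-1.55, background 11.3%). The *Smad4*-line WT cells had a similar pair of values, 46.5 on day 1 and 23.4 on day 2.

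The receptors *Rarg* and *Rara* declined step by step without passing the fold in any single day. *Rarg* was at 42.7, 27.6, 16.7 and 14.2 and *Rara* at 8.28, 5.94, 3.53 and 3.16. From ES cells to day 3 both were past the fold, with log2 ratios of -1.58 and -1.39, as were *Crabp1* (-2.31) and *Cyp26a1* (6.45), making 4 of 6 genes examined against 31.1% of all genes.

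As a measure of how far unmodified cells differ, F1G4 WT and *Smad4*-line WT columns were set against each other after scaling to a median ratio of 1, which includes the difference between the lines. None of the 4 genes examined on either day was past the fold, against 11.2% of all genes on day 1 and 5.09% on day 2. The widest ratio was that of *Rarg* on day 1, at -0.96 on the log2 scale (14.2 against 27.6). Below FPKM 1 the picture was different. *Cyp26a1* on day 2 was at 0.402 in the *Smad4*-line WT against 0.0215 in F1G4 WT, a log2 ratio of 4.23, and *Stra6* differed by -2.17 and -2.57. Ratios of such low values in KO cells are to be read against these.

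In the KO lines the 9 genes gave 16 calls past the fold among 41 examined gene and comparison pairs, 10 higher and 6 lower. With the columns rescaled to TPM, which raises all values against the minimum of 1, there were 22, 16 higher and 6 lower. Leaving out both columns that stand apart, there were 10, and with a pseudocount of 1 there were 12. The pairs are not independent, because the 3 F1G4 comparisons of a day share their WT samples. By comparison, the *Smad4* KO had 0 of 4 on day 1 (background 4.77%) and 2 of 5 on day 2 (5.77%). On day 2 the *Eomes* KO had 0 of 4 (7.52%), the *T* KO 1 of 4 (15.6%) and the dKO 0 of 4 (7.99%). On day 3 the counts were 5 of 7 in the *Eomes* KO (16.4%), 3 of 6 in the *T* KO (6.04%) and 5 of 7 in the dKO (11.0%). Calls were thus mostly on day 3 in the F1G4 lines and on day 2 in the *Smad4* KO. All *Aldh1a2* and *Rarb* calls and most *Cyp26a1* calls came from pairs with only 1 group above FPKM 1. Such pairs pass more readily, so the counts are no test against the background.

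**Figure D2:**
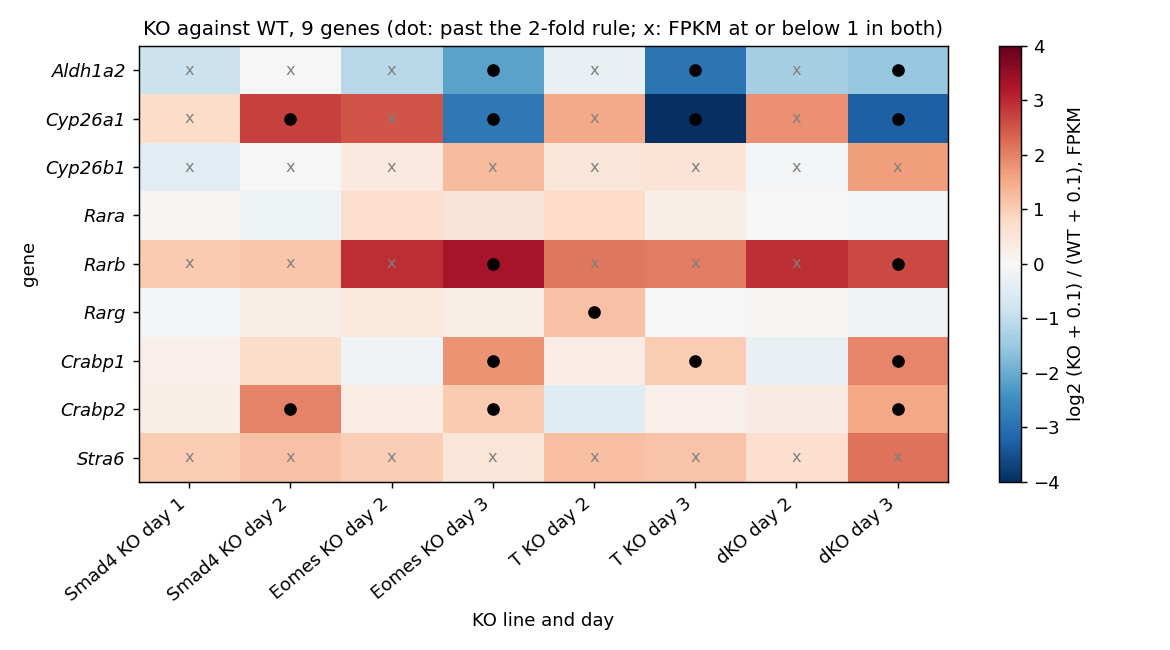
Log2 ratio of KO to WT FPKM with 0.1 added to each (colour, red higher and blue lower in KO) for the 9 genes (rows) in 8 KO comparisons (columns). Dots mark ratios past the fold and crosses pairs with FPKM at or below 1 in both groups. *Cyp26a1* and *Aldh1a2* are blue with dots in the 3 day 3 columns of the F1G4 KO lines, where *Crabp1* is red.

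The synthesising enzyme *Aldh1a2* was lower in KO than in WT in 8 of 8 comparisons, although 5 of them lay below the minimum. The F1G4 comparisons of a day share their WT samples, and the share of all genes lower in 8 of 8 was not counted. On day 3 it was at 0.163 in the *Eomes* KO, 0.0472 in the *T* KO and 0.306 in the dKO, against 1.02 to 1.06 in the WT columns of the same tables. The log2 ratios of -2.70, -4.44 and -1.79 were all past the fold. The single *T* KO had the lowest value and the dKO the least low. With a pseudocount of 1 none of the 3 passes. In the *Smad4* KO the values were 0.185 against 0.411 on day 1 and nearly equal, 0.332 against 0.339, on day 2, all below 1.

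The degrading enzyme *Cyp26a1* was lower in every F1G4 KO on day 3. Without Eomes it was at 1.22, without T at 0.420 and without both at 0.888, against 9.40, 9.10 and 9.36 in WT. The log2 ratios were -2.95, -4.44 and -3.40, that is 7.72-fold, 21.7-fold and 10.5-fold lower. As for *Aldh1a2*, the lowest value was that of the *T* KO. In the *T* KO the 2 enzymes ranked 42nd and 43rd lowest of 11239 genes by ratios without a pseudocount, with *Aldh1a2* close to 0. Adding 0.1 to both values separated them, at -2.93 for *Aldh1a2* and -4.14 for *Cyp26a1*.

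On day 2 the order was the opposite at a much lower level. *Cyp26a1* was at 0.595 without Eomes, 0.248 without T and 0.329 without both, against 0.0212 to 0.0221 in WT, none of it above FPKM 1. These log2 ratios of 4.81, 3.49 and 3.95 are of the same size as the difference between the WT lines on that day. From day 2 to day 3 the 3 KO lines moved to values between 0.420 and 1.22, while WT reached 9.02. Markers of nascent mesoderm other than the deleted genes *T* and *Eomes* (6 genes, summed) were at 34.7 and 108 FPKM on days 2 and 3 in WT and at 4.40, 24.8 and 20.8 on day 3 in the *Eomes* KO, the *T* KO and the dKO. Caudal markers (8 genes) summed to 43.2 in WT on day 3 and to 3.56 to 7.65 in the KO lines. The part of such cells in the *Cyp26a1* values was not tested.

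*Smad4* KO cells differed in that *Cyp26a1* was higher and clearly above the minimum on day 2. It stood at 3.20 against 0.399 in the *Smad4*-line WT, a log2 ratio of 3.01 and 8.03-fold, the 23rd highest of 10999 genes. On day 1 it was at 0.188 against 0.0713. No day 3 sample of this line was analysed here. The second degrading enzyme, *Cyp26b1*, did not exceed 0.221 in any condition (dKO on day 3), and *Cyp26c1* did not exceed 0.319.

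**Figure D3:**
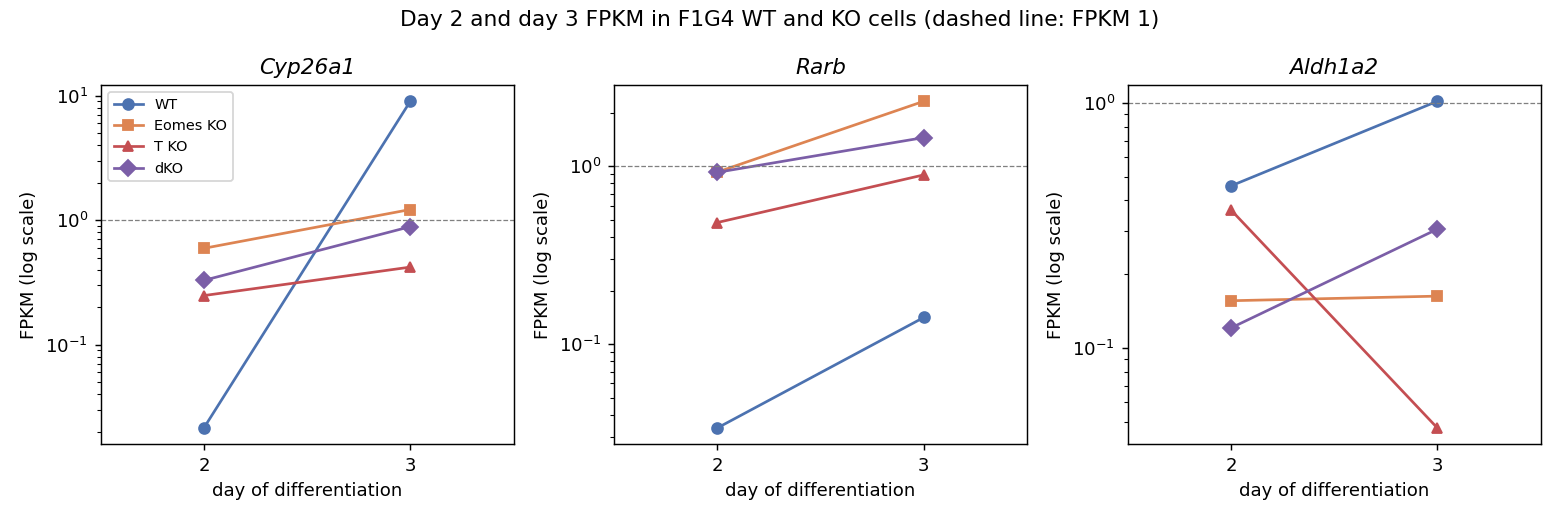
FPKM on a logarithmic axis of *Cyp26a1*, *Rarb* and *Aldh1a2* on days 2 and 3 in F1G4 WT, *Eomes* KO, *T* KO and dKO cells, with 1 pooled value per point and lines joining the days of a line. The WT line crosses those of the KO lines for *Cyp26a1*, lies below them for *Rarb* and above them for *Aldh1a2*.

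The receptor *Rarb* showed the reverse of *Aldh1a2* and was higher in KO than in WT in 8 of 8 comparisons. In the F1G4 WT cells it was listed at 0.0408, 0, 0.0338 and 0.141 from ES cells to day 3. In the *Eomes* KO it was at 0.927 on day 2 and 2.32 on day 3, in the *T* KO at 0.482 and 0.894, and in the dKO at 0.924 and 1.45. Each KO value of these lines was above the F1G4 WT values. All are single pooled values, and the F1G4 comparisons of a day share their WT samples. The share of all genes with such an order, or higher in 8 of 8 comparisons, was not counted. Only the *Eomes* KO and the dKO on day 3 exceeded FPKM 1, with log2 ratios of 3.97 and 3.30, or 15.7-fold and 9.87-fold. These were the 33rd highest of 11629 and the 75th highest of 11473 genes. In the *Smad4* KO *Rarb* was at 0.140 against 0.0158 on day 1 and 0.300 against 0.0840 on day 2.

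The *Eomes* KO on day 3, where *Rarb* was highest, is 1 of the 2 libraries that stand apart. The dKO on day 3, which does not by the number of genes past the fold, gave a value past the fold as well. As the dKO was made from the *Eomes* KO, these 2 lines are not independent. The dKO was not free of trends with transcript length. Of 4 equal groups of genes by length, the longest differed from the shortest in median log2 ratio by -0.54 and -0.27 in the dKO on days 2 and 3. In the *Eomes* KO on day 3 the difference was 0.42. Once GC and length trends were removed, the *Rarb* ratios on day 3 were 4.05 in the *Eomes* KO and 3.38 in the dKO. Endoderm markers (8 genes) summed to 1.70 to 4.53 FPKM in the *Eomes* KO and dKO, with *Ttr* between 0.608 and 1.25 and *Cer1* at 0 in 3 of these 4 columns. They summed to 0.957 and 0.106 in the *T* KO and to 0.496 and 0.498 in F1G4 WT on days 2 and 3. Neural markers (8 genes) summed to 27.7 to 48.3 in the 6 F1G4 KO columns against 29.6 and 29.1, most of it *Nes* in WT. The other 7 summed to 19.3 and 26.0 on days 2 and 3 in the *Eomes* KO and to 10.8 and 6.20 in the *T* KO. They summed to 15.8 and 23.6 in the dKO, against 3.27 and 3.65 in WT. In the *Smad4* KO on day 2 they summed to 23.0, with *Rarb* at 0.300. Feeder fibroblast markers (12 genes) summed to 15.8 in the *Eomes* KO on day 3 and to 4.04 to 7.46 in the other F1G4 KO columns. The part of these cells in the *Rarb* values was not tested.

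*Rarg*, by contrast, was the bulk of the receptor RNA everywhere. Set side by side per length, it made up 71.5% to 86.5% of the summed FPKM of the 3 receptors, with a median of 80.2%. *Rara* contributed 12.2% to 26.4%. *Rarb* contributed at most 0.805% in the 6 WT conditions and 9.36% in the *Eomes* KO, 4.67% in the *T* KO and 8.02% in the dKO on day 3.

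**Figure D4:**
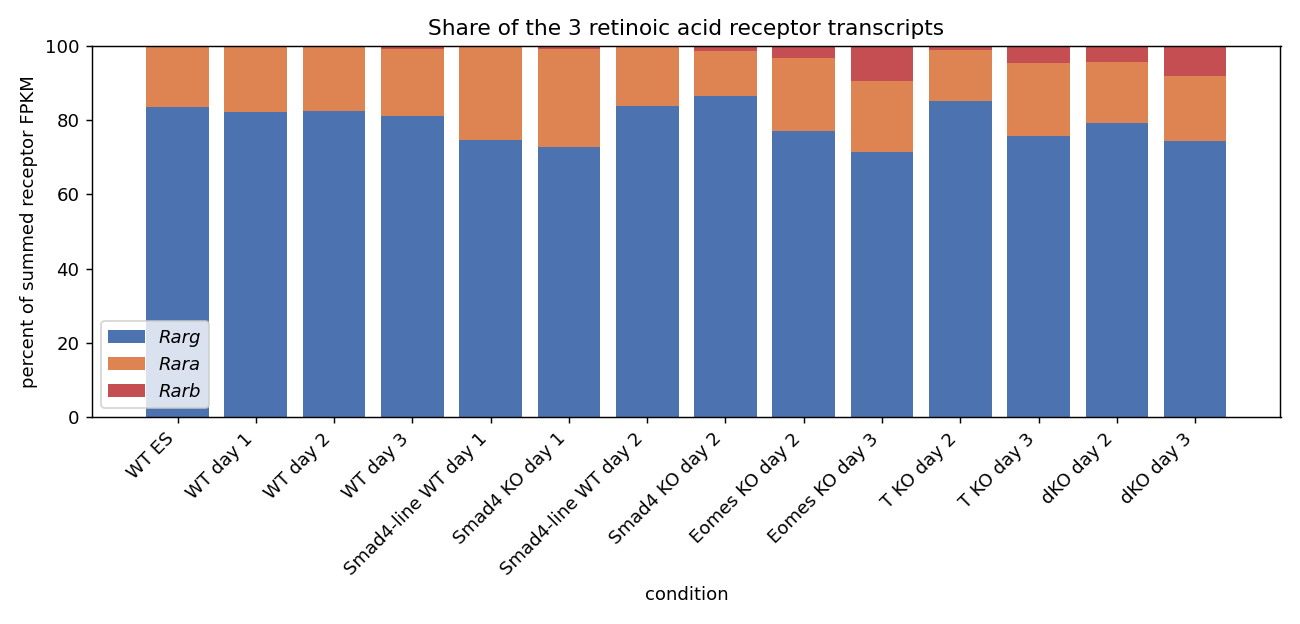
Percent of the summed FPKM of *Rarg*, *Rara* and *Rarb* (y axis) taken by each in the 14 conditions (x axis), without error bars because each condition has 1 pooled value. *Rarg* is the largest part of every bar and *Rarb* is visible mainly in the KO lines, up to 9.36%.

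In KO cells *Rarg* passed the fold once, in the *T* KO on day 2, at 38.9 against 17.2 (log2 ratio 1.18). This is 1 of the 2 columns that stand apart. There, of 4 equal groups of genes by GC content, the highest had a median log2 ratio of 0.12 and the lowest of -0.09, and of 4 groups by length the longest differed from the shortest by 0.16. Once the medians of groups of genes of like GC content and length were taken out, the ratio of *Rarg* was 0.99, no longer past the fold. In the other 7 comparisons its ratio lay between -0.14 and 0.42. *Rara* was not past the fold in any of 8, with values from 2.76 to 6.25 in KO cells and the widest log2 ratio, 0.78, again in the *T* KO on day 2.

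Each binding protein was past the fold and higher in 3 of 8 KO comparisons, and neither was past it and lower in any. *Crabp2* was past the fold in the *Smad4* KO on day 2, at 91.9 against 23.4 (log2 ratio 1.98, 3.93-fold), the highest *Crabp2* value of all conditions. It was past the fold on day 3 in the *Eomes* KO (40.3 against 19.5, 1.05) and the dKO (56.8 against 19.4, 1.55), but not in the *T* KO (21.5 against 18.9, 0.19). On day 2 the F1G4 KO lines lay between 13.8 and 23.4, around the WT value of 18.7. In the *Smad4* line *Crabp2* was at 46.5 and 23.4 in WT on days 1 and 2 and at 54.9 and 91.9 in KO, so the KO was higher on day 2 than on day 1 where the WT was lower. The summed neural markers were 81.0 in the *Smad4* KO on day 2 against 35.0 in its WT, and without *Nes* 23.0 against 5.02. Their part in the result was not tested.

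*Crabp1* differed from WT mainly because WT went down on day 3. On day 3 it was at 5.26 without Eomes, 2.93 without T and 5.85 without both, against 1.40 to 1.45 in WT, with log2 ratios of 1.86, 1.07 and 2.02. With a pseudocount of 1 that of the *T* KO was 0.71 and no longer past the fold. On day 2 the same lines were at 7.84, 10.9 and 7.01 against 8.55 to 8.93, within a log2 ratio of 0.29 of WT. Each KO line was itself lower on day 3 than on day 2, and the *T* KO was closest to the WT course. The *Smad4* KO was at 8.30 against 7.13 on day 1 and 9.64 against 5.73 on day 2, not past the fold.

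*Stra6*, although higher in KO than in WT in 8 of 8 comparisons, never exceeded 0.537 (*T* KO on day 2). All values lay below the minimum, so no fold is given, and the share of all genes higher in 8 of 8 was not counted.

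The single and double KO lines can be set side by side on day 3, when WT samples are shared. For *Cyp26a1* and *Aldh1a2* the *T* KO was furthest from WT. For *Crabp1* and *Crabp2* it was the dKO, and for *Rarb* the *Eomes* KO. The genes thus did not follow a single order. The dKO lay between the single KO lines for *Cyp26a1* and *Rarb* and outside them for the other 7 genes, below both for *Rara* (3.19, against 4.74 and 3.77) and *Rarg* (13.4, against 17.7 and 14.5) and above both for *Aldh1a2*, *Crabp1*, *Crabp2*, *Cyp26b1* and *Stra6*. Without replicates these orders are a description of the columns.

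The other genes of the pathway were taken from lists of 42 genes. Of these, 11 were never above FPKM 1, among them the other retinaldehyde dehydrogenases *Aldh1a1* and *Aldh1a3* and the storage enzyme *Lrat*, 19 were past the fold in at least 1 KO comparison and 12 were above FPKM 1 but never past the fold. Over the 8 comparisons 54 of 206 examined pairs were past the fold, 34 higher and 20 lower, against a background of 4.77% to 16.4% in single comparisons. Between the unmodified WT cells of both lines 6 of 45 pairs were past the fold, against a background of 11.2% on day 1 and 5.09% on day 2. In the *Smad4*-line WT *Dhrs4* was lower and *Rbp7* higher on day 1 (scaled 19.6 against 40.6 and 28.8 against 9.00), *Meis1* was higher on both days (1.16 against 0.319 and 1.67 against 0.163) and *Gbx2* on day 2 (1.47 against 0.442). KO values of these 4 genes are to be read against that difference.

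On the supply side, *Rdh10*, which makes the retinaldehyde that Aldh1a2 uses, was like *Aldh1a2* highest in WT cells on day 3. In WT cells it was at 2.07, 2.74, 4.02 and 10.8 from ES cells to day 3. On day 3 *Rdh10* was past the fold in the *Eomes* KO (5.21 against 11.3) and in the *T* KO (5.44 against 10.9), but not in the dKO (9.21). The *T* KO ratio of -1.01 was at the limit, and adding 0.1 to both values left it at -0.99. *Dhrs3*, which turns retinaldehyde back to retinol, was lower in the *Smad4* KO on day 2 (0.977 against 3.29) and higher in the *T* KO on day 3 (5.37 against 2.55). *Rdh11* and *Dhrs4*, further retinol and retinal dehydrogenases or reductases, passed the fold among the KO comparisons only in the columns that stand apart, at 24.6 against 63.0 and 9.64 against 27.5 in the *Eomes* KO on day 3, and for *Dhrs4* at 5.50 against 27.5 in the *T* KO on day 2. *Fabp5*, an alternative carrier of retinoic acid, had 53.8 to 351 FPKM and was not past the fold in any KO. *Rbp7*, a cellular retinol-binding protein, was lower in the *Smad4* KO (9.23 against 27.8 and 2.19 against 6.12) and higher in the dKO (14.2 against 6.73 and 3.74 against 0.898). *Rbp4*, the serum carrier, was past the fold at values up to 1.59, and *Ttr*, its partner in serum, was listed at 0 in F1G4 WT and at 1.19, 1.11 and 1.25 in the *Eomes* KO on days 2 and 3 and the dKO on day 3.

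The Rxr partners and cofactors were mostly level. *Rxra* rose in the WT columns from 1.33 in ES cells to 5.97 on day 3 and *Rxrb* lay between 6.53 and 11.1 in all conditions. Neither passed the fold in any KO, although *Rxra* was highest, at 12.3, in the *Eomes* KO on day 3. *Nr2f6*, an orphan receptor (6.89 to 12.7), did not pass it either. *Rxrg* was past the fold in the *Smad4* KO on day 2 (0.864 FPKM, log2 ratio -1.14) and the *Eomes* KO on day 2 (3.26 against 1.54). Of the cofactors, *Ncoa2* (14.8 against 6.62) was past the fold in the *Eomes* KO on day 3, whereas *Ncor1* (14.9 to 31.8), *Nrip1* (1.43 to 6.21) and *Ncoa3* (5.61 to 42.6) were not past it in any KO.

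A further 11 genes were listed because retinoic acid is often reported to induce them. In WT cells 7 of 9 examined were past the fold and higher from day 2 to day 3 (higher background 6.14%), among them *Hoxb1*, *Cdx1* and *Meis2*, transcription factors of the anterior-posterior axis. On day 2 in the F1G4 KO lines, 6 of 8 were higher in the *Eomes* KO (higher background 3.35%), 3 of 5 in the *T* KO (5.7%) and 6 of 8 in the dKO (3.48%), with 0 lower. These 3 comparisons share their WT samples. *Meis2* was at 16.6, 11.1 and 16.6 against 3.16 to 3.30 in WT, log2 ratios of 2.39, 1.75 and 2.40, and *Gbx2* at 4.02, 4.52 and 2.99 against 0.438 to 0.458. *Hoxb1*, *Cdx1* and *Stra8* passed only at values between 1.02 and 1.53. *Rarb*, which is not on this list, was higher on that day too but below FPKM 1. Of the caudal markers, 2 are at 0 in each of these columns, and *Cdx1* is not one of the markers. The caudal markers summed to 15.4, 21.3 and 13.4 in the 3 KO lines on day 2 against 3.56 in WT. Most of each sum was *Nkx1-2*, at 9.89, 16.4 and 7.86 in the KO lines and 2.06 in WT. The part of the caudal markers in these values was not tested.

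On day 3 the list had no common direction. It had 3 genes higher and 3 lower of 10 in the *Eomes* KO, 0 and 2 of 9 in the *T* KO, and 3 and 2 of 10 in the dKO. The background, both directions together, was 16.4%, 6.04% and 11.0% in the same order. *Hoxb1* was lower in all 3 lines (0.296, 0.373 and 1.28 against 2.72 to 2.81), while *Meis2* was higher in the *Eomes* KO and the dKO (22.7 and 20.3 against 8.18 to 8.22). *Rarres2* was past it in opposite directions, at 7.92 in the *Eomes* KO and 1.64 in the dKO against 3.80 to 3.82. In the *Smad4* KO the day 2 direction of the F1G4 lines was not seen. *Meis2* was lower on both days (0.527 against 1.13 and 1.36 against 3.77), and *Gbx2* and *Meis1* were higher on day 1 (4.59 against 1.35 and 2.33 against 1.12). Adding 0.1 to both values ended the day 1 calls of *Meis2* (-0.97) and *Meis1* (0.99). *Nr6a1* (11.5 to 29.1) did not pass the fold in any KO.

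**Figure D5:**
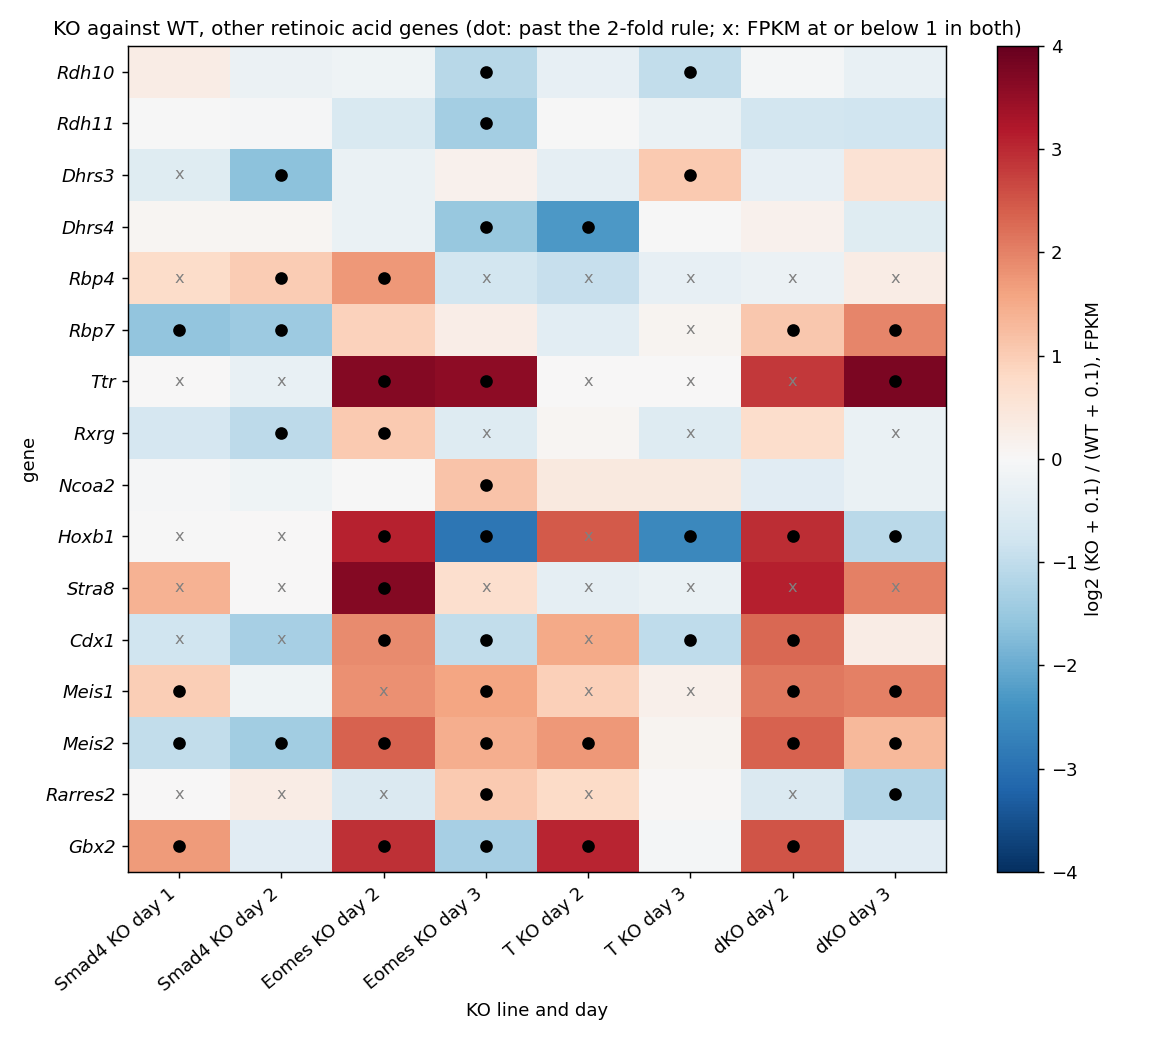
Log2 ratio of KO to WT FPKM with 0.1 added to each (colour) for 16 of the 19 other retinoic acid genes past the fold in at least 1 of 8 KO comparisons, with dots for ratios past the fold and crosses for pairs at or below FPKM 1 in both groups. *Meis2* and *Gbx2* are red with dots in the 3 day 2 columns of the F1G4 KO lines, and *Hoxb1* is blue with dots in their day 3 columns.

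Genes with the most similar course over the 14 conditions were sought among 12590 genes by Pearson's r of log2(FPKM + 0.1), as a description. For *Cyp26a1* these were *Vim* (0.86), *Rcn1* (0.81) and *Nab1* (0.81), all highest in WT on day 3. For *Rarb* they were *Tsg101* (0.93), *Rexo5* (0.92) and *Ccdc167* (0.90), all highest in the *Eomes* KO on day 3, a column that stands apart. *Rarg* was closest to *Setdb1*, *Acp6* and *Fbrsl1* (0.92 to 0.94) and *Rara* to *Jade1*, *Gm20939* and *Gm2381* (0.90 to 0.91), highest in ES cells. *Crabp1* was closest to *Gm14403*, *Wscd1* and *Zfp418* (0.87 to 0.88), *Crabp2* to *Nap1l5*, *Far2* and *Chd3os* (0.81 to 0.82) and *Aldh1a2* to *Gm5801*, *Eif3j1* and *Ube2s* (0.76 to 0.78). The ranking was loose. Of the 21 genes named, 12 stayed among the 3 closest with a pseudocount of 1 and 3 with the 10 F1G4 conditions alone. The conditions share WT samples, cell lines and libraries.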

How the data were processed

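RNA-seq of 18 samples in 14 conditions was analysed. The authors deposited FPKM values, made with Cuffdiff 2.2.1 (multi-read and bias correction, no effective length correction), after trimming with cutadapt 2.9 and alignment with HISAT2 2.1.0 to mm10 with refSeq genes. Total RNA libraries were strand-specific. Each of 9 tables holds 1 value per gene and condition, and read depth is unknown. The F1G4 WT columns of KO tables were multiples of the time-course columns (0.989 to 1.04), so they add no replication. KO ratios were taken within a table, without a pseudocount unless stated. Motifs and positions used RefSeq on GRCm38.p6.

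The members and gene lists were chosen with earlier results of these data known. Named genes were the 9 members, other listed genes past the fold in a KO or above FPKM 5, and the 3 closest in pattern. Some listed genes enter the counts but are not reported here by name. Alternatives were pseudocounts of 0.1 and 1, no FPKM minimum or 5, TPM, median scaling, and removal of GC and length trends (20 groups each, 95.8% to 96.5% of examined genes with a transcript match). The call rule was tested on simulated data. Python 3.11.15, pandas 2.3.3 and numpy 2.4.6 were used.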

Additional observations from a re-analysis of the deposited data

Results flagged for a closer look

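Some retinoic acid genes lay on opposite sides of WT on days 2 and 3 of the same KO line, past a log2 ratio of 1 both ways and above FPKM 1 in at least 1 of the 4 columns. With 1 pooled value per condition the difference between the days was not tested. For *Cyp26a1* the log2 ratio on day 3 minus that on day 2 was -7.75 in the *Eomes* KO, -7.92 in the *T* KO and -7.35 in the dKO, with all day 2 values below FPKM 1. *Hoxb1* had differences of -7.94, -6.79 and -5.67 in the same order. *Cdx1* had -3.43 in the *Eomes* KO and -3.04 in the *T* KO. In the *Eomes* KO *Gbx2* had -4.58, from 4.02 against 0.439 on day 2 to 1.56 against 4.09 on day 3, and *Rbp4* had -3.06 with both day 3 values below FPKM 1.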

How the results depend on the processing

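No paired analysis was possible because each column pools its condition and carries no replicate number, and for the same reason no replicate could be left out. Of 668 recomputed ratios of the 9 genes, 0 called ratios reversed, 15 lost the call and 39 gained it, 32 of these without an FPKM minimum. The 16 calls of the 9 genes in the KO lines became 12 with a pseudocount of 1, 43 without a minimum and 9 above FPKM 5. Chosen after seeing the data, leaving out both columns that stand apart (day 3 *Eomes* KO, day 2 *T* KO) left 10, and removing GC and length trends left 15. The 5 time-course calls became 15 without a minimum. The 0 calls between WT lines became 6 without a minimum, 1 with TPM and 1 with no scaling between tables. The 54 calls of other genes became 31 with a pseudocount of 1, 116 without a minimum and 22 above FPKM 5. Of the 21 similar genes 12 remained among the closest with a pseudocount of 1 and 3 with F1G4 conditions only. The 2 repeats became 1 with half-sites AGGTCA and AGTTCA only. TPM shifted all log2 ratios by -0.22 in the *Eomes* KO on day 2, 0.28 on day 3, 0.12 in the *T* KO on day 2, and -0.41 and -0.11 in the dKO. Depth is unknown, so the counting error of low values cannot be given.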
